A study of Rattus norvegicus with 16 samples.

Results

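Klk1, Scd, Atp1b4, Clrn1, Capn6 and C1qtnf3 are 6 genes of rat plantaris muscle whose mean at day 7 of overload stood far above their means at days 0, 3 and 28, and they were chosen by those values. They are 6 of the 14557 genes tested, each read from 1 transcript cluster, which is a group of probes on the array that reports 1 transcribed locus. The series followed the plantaris of retired breeder Sprague Dawley rats after both Achilles tendons had been excised, which takes the gastrocnemius and soleus out of use and loads the plantaris, a growth stimulus called synergist ablation. Muscles were taken at days 0, 3, 7 and 28, and RNA was read on 16 Affymetrix arrays (Rat Gene 2.1 ST), 4 at each time. Day 0 is labelled control muscle without overload, no sham operation is named, and the sex of the animals is not given. Whether the numbered replicates are separate animals is not stated, so the p-values cover sample-to-sample spread that may be only technical.

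The 6 genes come from unrelated families. In a muscle overloaded by synergist ablation, the fibres grow while inflammatory cells enter and satellite cells, the stem cells of muscle, divide and fuse, so that genes of developing muscle are often expressed again for a time. Klk1 encodes tissue kallikrein, a secreted serine protease that frees kinin peptides from kininogens. C1qtnf3 encodes a secreted protein with a C1q domain, known from cartilage and adipose tissue. Scd encodes stearoyl-CoA desaturase, an enzyme of the endoplasmic reticulum that makes monounsaturated fatty acids. Atp1b4 belongs to the family of Na,K-ATPase beta subunits, but in placental mammals its product lies in the inner nuclear membrane of developing muscle and has been reported to bind the transcriptional co-regulator Snw1 and to act on Smad7. Clrn1 encodes clarin, a membrane protein of sensory cells that is mutated in a form of Usher syndrome in humans. Capn6 encodes a calpain that lacks the catalytic cysteine, binds microtubules and, in mice, restrains muscle differentiation.

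The promoters of 3 of the genes are shown. Klk1 was taken because, of all genes tested, its day 7 mean stood furthest above the highest mean of the other days. Clrn1 and Capn6 were taken because they hold the CAGCTG form of the E-box, the short motif bound by the myogenic factors. The windows come from RefSeq on rat assembly GRCr8 and run from 250 bases before to 50 bases after the annotated start of the gene, and capitals mark each E-box (CANNTG). Klk1 lies at chr1:103779152-103783270, Clrn1 at chr2:145233941-145280855 and Capn6 at chrX:112177467-112202178. Their windows are chr1:103778902-103779201 on the plus strand, chr2:145280806-145281105 on the minus strand and chrX:112202129-112202428 on the minus strand, written 5′ to 3′ along the gene.
Klk1: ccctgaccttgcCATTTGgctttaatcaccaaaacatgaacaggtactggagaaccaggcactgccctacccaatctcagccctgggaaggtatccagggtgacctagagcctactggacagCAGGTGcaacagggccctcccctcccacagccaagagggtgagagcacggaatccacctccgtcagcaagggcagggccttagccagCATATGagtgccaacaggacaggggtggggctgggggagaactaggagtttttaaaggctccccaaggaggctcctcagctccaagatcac
Clrn1: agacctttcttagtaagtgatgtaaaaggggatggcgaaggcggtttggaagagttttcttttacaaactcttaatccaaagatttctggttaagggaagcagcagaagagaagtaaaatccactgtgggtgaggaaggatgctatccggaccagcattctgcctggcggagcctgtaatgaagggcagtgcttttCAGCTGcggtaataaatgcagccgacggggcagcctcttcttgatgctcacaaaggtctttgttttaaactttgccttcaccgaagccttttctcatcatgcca
Capn6: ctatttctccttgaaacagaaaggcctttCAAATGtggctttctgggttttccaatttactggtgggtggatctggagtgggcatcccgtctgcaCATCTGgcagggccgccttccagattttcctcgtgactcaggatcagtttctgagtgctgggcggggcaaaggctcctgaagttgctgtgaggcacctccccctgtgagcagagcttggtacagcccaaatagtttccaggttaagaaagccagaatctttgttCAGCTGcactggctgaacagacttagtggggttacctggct

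Klk1 has 3 E-boxes in its window, Clrn1 has 1 and Capn6 has 3, and the CAGCTG of Capn6 lies just after the start of the gene. The windows of Scd, Atp1b4 and C1qtnf3, which the table sets on a start inside the outermost bounds of the gene given below, also hold an E-box. Each of the 6 windows thus has at least 1, as do 72.1% of the 33469 rat promoters of this length searched on both strands. CAGCTG, which is also an E-box, was in 2 of the 6 windows and in 15.1% of all windows. CCAAT was in 3 of the 6 (Klk1, Atp1b4 and Capn6) and in 37.5% of all, while CATTCC and TATAAA were each in that of C1qtnf3 alone and in 14.2% of all. The MEF2 site, the CArG box and the sterol response element TCACNCCAC were in none of the 6 windows and in 3.29%, 1.64% and 1.12% of all. The motifs were picked after the windows had been read, and a match describes the letters, not a bound site. Scd lies at chr1:253218968-253232101, Atp1b4 at chrX:121952923-121974146 and C1qtnf3 at chr2:61644225-61666640 on the same assembly.

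Values are the deposited log2 expression values, on which 1 unit is a doubling. The median of all clusters lay between 3.19 and 3.41 on the 16 arrays, and values below it are compressed. Levels of different genes cannot be set against each other on this scale, so only differences are. All differences are the later minus the earlier day. A gene was called with limma at an adjusted p under 0.05 (Benjamini-Hochberg over the 14557 genes). The contrasts of day 7 with other days chose the 6 genes, so these have no test there, while the other 3 contrasts were tested. The tissue label was checked against 8 measured skeletal muscle markers, whose mean was 12.10 to 12.67 on every array. Macrophage markers, by the mean of 6 measured of 8 listed, were between 3.72 and 4.32 on day 0 arrays, between 8.0 and 8.52 on day 3 arrays, between 6.29 and 6.87 on day 7 arrays and between 5.05 and 5.44 on day 28 arrays. Fibroblast markers, all 8 measured, were between 6.92 and 7.08, 9.34 and 9.90, 9.62 and 9.84, and 8.36 and 8.69 on the same days. Fibroblast markers were therefore high at days 3 and 7 alike, and macrophage markers were highest at day 3. In RNA of whole muscle, more cells of a type and more RNA per cell cannot be told apart.

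Klk1, the secreted protease, was near the bottom of the scale except at day 7. Its 4 arrays read 1.91, 1.60, 1.34 and 1.91 at day 0 and 1.53, 1.58, 1.79 and 1.80 at day 3. They read 6.03, 4.97, 4.39 and 4.93 at day 7 and 1.87, 1.95, 1.44 and 1.69 at day 28. Every day 7 array was above every array of the other days, by a gap of 2.43 between the lowest day 7 array and the highest of the rest. The means were 1.69 ± 0.28 at day 0, 1.67 ± 0.14 at day 3, 5.08 ± 0.69 at day 7 and 1.74 ± 0.23 at day 28 (SD, n = 4 each). Day 7 minus day 0 was 3.39, or 10.5-fold, and day 28 minus day 7 was -3.34. The low side of both lay under the array medians, where values are compressed. Day 3 and day 0 differed by -0.01, with a 95% interval of -0.54 to 0.51 and an adjusted p of 0.974 (limma). Day 28 and day 0 differed by 0.05, with an interval of -0.48 to 0.58 and an adjusted p of 0.932 (limma). Day 28 and day 3 differed by 0.06 (adjusted p = 0.885, limma). No difference between these 3 days was detected, at a level where the scale is compressed.

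The kallikrein family of the rat is made of closely similar neighbouring genes, and signal of a relative on the Klk1 probes cannot be told apart from Klk1 here. Of 23 further kallikrein genes listed, 18 were measured. Between day 7 and day 0, 1 rose and 1 fell, beside 16.9% and 14.9% of all genes, and at day 3 against day 0 none rose and 1 fell, beside 21.7% and 19.6%. With each array centred on the median of the genes tested, none rose in either comparison, while 4 fell at day 7 and 10 at day 3. Over all 14557 genes, centring gave 1417 rises and 7025 falls at day 7 against day 0. It gave 1883 rises and 8438 falls at day 3 against day 0. At day 28 against day 7 none passed in either direction, beside 8.24% and 9.38% of all genes. The family's median at day 7 against day 0 was 0.00, beside -0.04 for all genes. With centred arrays it was -0.36, beside -0.40 for all genes. Klk1c10, one of the close relatives, fell by 1.02 at day 7 against day 0 (SE 0.26, adjusted p = 0.0067, limma), opposite in sign to the difference of Klk1. Klk8, a kallikrein best known from brain and skin, rose by 0.39 (adjusted p = 0.0475, limma), a call lost in 15 of 21 alternatives. Klk15 fell by 0.69 at day 3 against day 0 (adjusted p = 0.0102, limma). These 3 genes had means under the array medians on the days compared. None of the 18 had a mean above the highest array median of any day, Klk1b3 being the brightest at 3.34 at day 0 and 3.32 at day 7. Values there are compressed, so the small differences of the family do not show that its genes were unchanged.

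Among the genes that handle kinins, 9 of 14 were measured, with the kininogens Kng1 and Kng2 not analysed here. Between day 7 and day 0, 3 rose and none fell, beside 16.9% and 14.9% of all genes. With centred arrays 2 rose and 4 fell, where 1417 of the 14557 genes rose and 7025 fell. At day 28 against day 7, 1 rose and 3 fell, beside 8.24% and 9.38% of all genes. The list's median at day 7 against day 0 was -0.09, and -0.44 with centred arrays. Serping1, the inhibitor of plasma kallikrein and of complement C1, averaged 8.66 at day 7 and 6.41 at day 0, a rise of 2.26 (SE 0.19, adjusted p = 1.11e-07, limma). Cpm, a membrane carboxypeptidase that trims kinins, rose by 1.31 (SE 0.28, adjusted p = 0.00179, limma) and fell by 1.24 at day 28 against day 7. Xpnpep1, an aminopeptidase that degrades bradykinin, rose by 0.48 at day 7 (adjusted p = 0.0082, limma), which was 0.12 and not called with centred arrays. Ace, the dipeptidase that inactivates bradykinin, fell by 0.77 at day 3 against day 0 (adjusted p = 0.000257, limma) and rose by 0.56 at day 7 against day 3. At day 28 against day 0, Serping1 was higher by 0.93 (adjusted p = 0.00477, limma), and Mme, the kinin-degrading endopeptidase neprilysin, by 0.82 (adjusted p = 0.00322, limma). The kinin receptors Bdkrb1 and Bdkrb2 averaged 1.95 and 2.80 at day 7, against 2.11 and 2.89 at day 0, all under the array medians.

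C1qtnf3, the other secreted product, climbed at day 3 before its day 7 peak. Its arrays read 3.24, 3.67, 3.40 and 3.23 at day 0 and 4.61, 5.27, 4.87 and 5.47 at day 3. They read 7.81, 7.20, 7.89 and 7.54 at day 7 and 4.19, 4.12, 4.48 and 4.24 at day 28. No array of any day overlapped those of another day, and the order of the days was 0, 28, 3 and 7 from low to high. The means were 3.39 ± 0.20, 5.06 ± 0.39, 7.61 ± 0.31 and 4.26 ± 0.16 in the order of the days (SD, n = 4 each). The difference of day 7 from day 0 was 4.23, or 18.7-fold, day 7 minus day 3 was 2.55 and day 28 minus day 7 was -3.35. The day 0 mean lay at the level of the array medians. Of the contrasts that did not choose it, day 3 was above day 0 by 1.67 (SE 0.19, 3.19-fold, adjusted p = 1.25e-06, limma). Day 28 was above day 0 by 0.87 (SE 0.19, 1.83-fold, adjusted p = 0.00692, limma) and below day 3, as C1qtnf3 fell by 0.80 between them (adjusted p = 0.00295, limma).

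Several relatives of C1qtnf3 with a C1q domain rose too. Of 28 listed, 23 were measured. Compared with day 0, 8 rose and 3 fell at day 7, beside 16.9% and 14.9% of all genes. With centred arrays 8 rose and 6 fell, where 1417 of the 14557 genes rose and 7025 fell. At day 7 against day 3, 3 rose and 3 fell, and at day 28 against day 7, 2 rose and 6 fell. When 1 array was left out, the rises ran from 0 to 3 at day 7 against day 3 and from 1 to 3 at day 28 against day 7. The shares over all genes were 6.02% that rose and 9.23% that fell at day 7 against day 3, and 8.24% and 9.38% at day 28 against day 7. The list's median at day 7 against day 0 was 0.30, and -0.06 with centred arrays. C1qtnf6, a secreted relative, averaged 3.93 at day 0, 6.34 at day 3, 6.61 at day 7 and 5.30 at day 28, with a rise of 2.67 at day 7 against day 0 (SE 0.22, adjusted p = 8.23e-08, limma). C1qtnf5 rose by 2.34 at day 7 against day 0 (adjusted p = 1.75e-07, limma) and fell by 1.57 at day 28 against day 7. Col8a1, a collagen of vessel walls and basement membranes, rose by 2.53 at day 7 against day 0 (adjusted p = 1.08e-08, limma). It fell by 2.07 at day 28 against day 7, but its mean was highest at day 3, at 7.19, beside 6.69 at day 7. The complement genes C1qa, C1qb and C1qc, made largely by macrophages, were highest at day 3, where C1qa was above day 0 by 3.59 (adjusted p = 1.52e-10, limma). C1qb fell by 1.14 at day 7 against day 3 (adjusted p = 0.00157, limma). At day 7, C1qc was above day 0 by 2.75 and C1qa by 2.64 (adjusted p = 2.59e-08 and 1.45e-08, limma). Adiponectin (Adipoq), the fat cell hormone of the family, fell by 1.79 at day 3 against day 0 (adjusted p = 4.75e-05, limma) and was 1.02 higher at day 7 than at day 3 (adjusted p = 0.0186, limma), a call lost without day 3 replicate 2 or day 7 replicate 2. The 6 cartilage markers measured had a mean of 2.64 to 3.22 at day 7 and 2.74 to 3.04 at day 0, with 4 of the 6 under the array medians at day 7.

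Scd, the desaturase, was lowest at days 0 and 3 and had not come back to that range at day 28 on every array. It read 4.89, 5.57, 5.87 and 5.81 at day 0 and 4.61, 5.12, 5.01 and 5.75 at day 3. It read 9.77, 8.18, 8.42 and 8.32 at day 7 and 6.07, 7.71, 5.74 and 6.50 at day 28. Replicate 1 stood above the other day 7 arrays and replicate 2 above the other day 28 arrays, and the gap between day 7 and all other arrays was 0.47. The means were 5.54 ± 0.45 at day 0, 5.12 ± 0.47 at day 3, 8.67 ± 0.74 at day 7 and 6.50 ± 0.86 at day 28 (SD, n = 4 each). The day 7 mean was above day 0 by 3.14, or 8.79-fold, and day 7 minus day 3 was 3.55. Day 28 minus day 7 was -2.17. Day 3 minus day 0 was -0.42 and did not pass (adjusted p = 0.443, limma). Day 28 minus day 0 was 0.97, with an unadjusted 95% interval of 0.13 to 1.81, and did not pass after adjustment (adjusted p = 0.146, limma). Day 28 was above day 3 by 1.38 (SE 0.40, 2.61-fold, adjusted p = 0.012, limma), although the arrays of the 2 days overlapped. Without day 28 replicate 2 that rise was 0.98, with an adjusted p of 0.0469 (limma).

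Genes of fatty acid synthesis and storage moved in both directions beside Scd. Of 28 listed, 21 were measured, of which 10 rose and 6 fell at day 7 against day 0, beside 16.9% and 14.9% of all genes, with a median of 0.64. With centred arrays 8 rose and 9 fell at day 7 against day 0, with a median of 0.28. Over the 14557 genes, centring gave 1417 rises and 7025 falls there. At day 28 against day 0, centring gave 3 rises and 5 falls, beside 544 and 3043 over all genes. Further counts were 11 rises and 6 falls at day 3 against day 0, 4 and 3 at day 7 against day 3, 5 and 4 at day 28 against day 7, and, without centring, 5 and 2 at day 28 against day 0. Over all genes, rises and falls were 21.7% and 19.6%, 6.02% and 9.23%, 8.24% and 9.38%, and 6.29% and 2.8% in these comparisons. Scd2, the second desaturase gene, read 7.93, 7.47, 7.49 and 7.97 at day 0 and 7.56, 8.34, 8.05 and 8.86 at day 3. Its arrays were 9.61, 8.50, 9.21 and 9.53 at day 7 and 8.52, 8.12, 7.79 and 8.81 at day 28, so that the day 7 arrays overlapped those of days 3 and 28. Scd2 rose by 1.50 at day 7 against day 0 (SE 0.28, adjusted p = 0.000561, limma) and by 1.01 against day 3 (adjusted p = 0.0211, limma), and fell by 0.90 at day 28 against day 7 (adjusted p = 0.0356, limma). Srebf1, the transcription factor that drives lipid synthesis genes, fell by 1.89 at day 3 against day 0 (adjusted p = 3.21e-06, limma), rose by 1.07 at day 7 against day 3 (adjusted p = 0.00392, limma) and was still 0.83 lower at day 7 than at day 0 (adjusted p = 0.011, limma). At day 7 against day 0, Acsl3, which activates fatty acids, rose by 1.51 (adjusted p = 3.89e-06, limma) and Fads2, another desaturase, by 1.27 (adjusted p = 2.08e-05, limma). Lpin1, a phosphatidate phosphatase of triglyceride synthesis, fell by 1.61 (adjusted p = 4.18e-07, limma) and rose by 1.09 at day 28 against day 7. Elovl1, which elongates long fatty acids, rose by 2.14 at day 3 against day 0 (adjusted p = 1.71e-08, limma). At day 28, Acsl3 was still 1.19 and Fads1 0.99 above day 0 (adjusted p = 0.000277 and 0.00098, limma). Acly, which makes cytosolic acetyl-CoA, rose by 1.78 at day 3 against day 0 (adjusted p = 1.05e-07, limma) and fell by 0.75 at day 7 against day 3, when Scd differed by 3.55 the other way. Insig1, a sterol sensor that restrains Srebf processing, fell by 1.30 at day 7 against day 3 (adjusted p = 1.89e-05, limma). Plin2, a coat protein of lipid droplets, rose by 0.91 at day 3 (adjusted p = 5.29e-06, limma) and by 1.01 at day 7 (adjusted p = 3.78e-06, limma), both against day 0. At day 7 against day 3 it differed by 0.10 and did not pass (adjusted p = 0.645, limma). Plin2 fell by 1.00 at day 28 against day 7 (adjusted p = 2.5e-05, limma). Adipocyte markers, 7 measured of 9 listed, averaged 4.98 to 5.42 on day 7 arrays, against 4.79 to 5.47 on day 0 arrays. Of these 7, 1 rose and 2 fell at day 7 against day 0.

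Atp1b4, the nuclear membrane member of its family, fell below the control level before its peak. The arrays read 6.19, 6.39, 6.22 and 6.28 at day 0 and 4.91, 4.26, 4.84 and 4.39 at day 3. They read 7.79, 7.17, 7.77 and 9.01 at day 7 and 6.08, 6.18, 6.59 and 5.93 at day 28. Day 3 lay under all other arrays, day 7 above them by a gap of 0.57, and days 0 and 28 overlapped. The means were 6.27 ± 0.09 at day 0, 4.60 ± 0.32 at day 3, 7.94 ± 0.77 at day 7 and 6.19 ± 0.29 at day 28 (SD, n = 4 each). The peak exceeded day 0 by 1.67, or 3.17-fold, day 7 minus day 3 was 3.34, or 10.1-fold, and day 28 minus day 7 was -1.74. Tested outside the contrasts that chose it, Atp1b4 fell by 1.67 at day 3 against day 0 (SE 0.28, 3.19-fold, adjusted p = 8.85e-05, limma). It rose by 1.60 at day 28 against day 3 (SE 0.28, 3.03-fold, adjusted p = 0.00022, limma). Day 28 and day 0 differed by -0.07, with a 95% interval of -0.66 to 0.51 (adjusted p = 0.911, limma).

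Among the ion-pump relatives of Atp1b4, of 17 subunits and FXYD regulators of the Na,K-ATPase and H,K-ATPase, 9 were measured. Set against day 0, 2 rose and 1 fell at day 7, beside 16.9% and 14.9% of all genes. With centred arrays 2 rose and 5 fell, where 1417 of the 14557 genes rose and 7025 fell. At day 7 against day 3, 2 rose and none fell, and at day 28 against day 7, 1 rose and 1 fell, beside 6.02% and 9.23%, and 8.24% and 9.38%, of all genes. The median at day 7 against day 0 was 0.02, and -0.34 with centred arrays. Atp1b1, the main beta subunit, averaged 9.85 at day 7 and 10.08 at day 0, and did not pass (adjusted p = 0.333, limma). Atp1b3, another beta subunit, rose by 0.85 at day 3 (adjusted p = 2.36e-05, limma) and by 0.73 at day 7 (adjusted p = 0.000198, limma), both against day 0, while Atp1b4 was low at day 3. Fxyd1, the pump regulator phospholemman, fell by 1.06 at day 3 against day 0 (adjusted p = 1.72e-05, limma) and rose by 0.82 at day 7 against day 3 (adjusted p = 0.00114, limma). Fxyd6 rose by 1.02 at day 7 against day 0 (adjusted p = 0.00673, limma). Fxyd3, dim on all days, fell by 0.78 at day 7 against day 0, a call lost without day 0 replicates 1 or 3 or without day 7 replicates 1 or 4. Snw1, the reported partner of Atp1b4, passed in no comparison and averaged 7.67 at day 7 and 7.70 at day 0. With centred arrays, however, both Snw1 and Smad7 fell at days 3 and 7 against day 0, as 8438 and 7025 of the 14557 genes did. Smad7, an inhibitor of TGF-beta signalling, fell by 1.13 at day 3 (adjusted p = 0.000112, limma), by 0.80 at day 7 (adjusted p = 0.00359, limma) and by 0.93 at day 28 (adjusted p = 0.00506, limma), each against day 0, without a peak at day 7.

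Clrn1, the clarin, stayed raised after the peak. It read 3.36, 2.70, 2.99 and 3.10 at day 0 and 5.93, 5.47, 5.18 and 4.45 at day 3. It read 7.71, 7.51, 6.32 and 8.27 at day 7 and 5.76, 5.64, 5.76 and 4.93 at day 28. Day 0 lay below all other arrays, days 3 and 28 overlapped, and the lowest day 7 array was 0.39 above the highest of the rest, the narrowest gap of the 6 genes. The means were 3.04 ± 0.27 at day 0, 5.26 ± 0.62 at day 3, 7.45 ± 0.82 at day 7 and 5.52 ± 0.40 at day 28 (SD, n = 4 each). Of the 6 genes Clrn1 had the largest difference of day 7 from day 0, 4.42, or 21.3-fold, from a day 0 level in the compressed range. Day 7 minus day 3 was 2.19 and day 28 minus day 7 was -1.93. Clrn1 rose by 2.22 at day 3 against day 0 (SE 0.35, 4.66-fold, adjusted p = 4.91e-05, limma). It rose by 2.49 at day 28 against day 0 (SE 0.35, 5.61-fold, adjusted p = 0.000194, limma). Day 28 minus day 3 was 0.27, with a 95% interval of -0.47 to 1.00 (adjusted p = 0.626, limma).

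The other genes of the Usher complex, which builds and anchors the hair bundle of the inner ear, gave 7 measured of 17 listed. Of these, 1 rose and 1 fell at day 7 against day 0, beside 16.9% and 14.9% of all genes. With centred arrays 1 rose and 2 fell, where 1417 of the 14557 genes rose and 7025 fell. At day 7 against day 3, none rose and 1 fell, and at day 28 against day 7, 2 rose and 1 fell, beside 6.02% and 9.23%, and 8.24% and 9.38%, of all genes. When 1 array was left out, the rises at day 28 against day 7 ran from 0 to 2. The median at day 7 against day 0 was -0.02, and -0.38 with centred arrays. The further clarins Clrn2 and Clrn3 averaged 1.94 and 2.53 at day 7, against 1.95 and 2.64 at day 0, under the array medians. Myo7a, an unconventional myosin, rose by 1.82 at day 3 against day 0 (adjusted p = 1.87e-06, limma) and fell by 0.93 at day 7 against day 3 (adjusted p = 0.00585, limma), when Clrn1 differed by 2.19 the other way. Cib2, a calcium-binding protein also found in muscle, fell by 1.06 at day 3 against day 0 (adjusted p = 0.00482, limma) and by 0.80 at day 7 against day 0 (adjusted p = 0.0347, limma), the second call being lost in 7 of 22 alternatives. Hair cell markers, 5 measured of 6, had a mean of 2.17 to 2.54 at day 7 and 2.25 to 2.47 at day 0, with 4 of the 5 under the array medians at day 7.

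Capn6, the calpain without a catalytic cysteine, was raised at day 3, highest at day 7 and still above day 0 at day 28. It read 5.48, 6.33, 5.60 and 5.77 at day 0 and 6.81, 7.23, 6.92 and 7.13 at day 3. It read 9.51, 8.67, 8.69 and 9.02 at day 7 and 6.45, 7.00, 7.14 and 6.90 at day 28. Day 0 lay below all others, days 3 and 28 overlapped, and the gap below day 7 was 1.45. The means were 5.80 ± 0.38 at day 0, 7.02 ± 0.19 at day 3, 8.97 ± 0.39 at day 7 and 6.87 ± 0.30 at day 28 (SD, n = 4 each). Day 7 minus day 0 was 3.18, or 9.05-fold, day 7 minus day 3 was 1.95 and day 28 minus day 7 was -2.10. Capn6 rose by 1.22 at day 3 against day 0 (SE 0.21, 2.34-fold, adjusted p = 0.000134, limma), or by 0.76 with centred arrays (adjusted p = 0.00394, limma). It rose by 1.08 at day 28 against day 0 (SE 0.21, 2.11-fold, adjusted p = 0.00356, limma). Day 28 minus day 3 was -0.15, with a 95% interval of -0.60 to 0.30 (adjusted p = 0.656, limma).

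Of 17 further calpain genes, with the inhibitor calpastatin and the microtubule-bound factor Arhgef2, 13 were measured. Of these, 4 rose and none fell at day 7 against day 0, beside 16.9% and 14.9% of all genes. With centred arrays 1 rose and 4 fell, where 1417 of the 14557 genes rose and 7025 fell. The list's median was 0.12, or -0.24 with centred arrays. At day 7 against day 3, 1 rose and none fell, and at day 28 against day 7, none rose and 3 fell, beside 6.02% and 9.23%, and 8.24% and 9.38%, of all genes. When 1 array was left out, the rises at day 7 against day 3 ran from 0 to 2. Capn5, a calpain with the same domain layout as Capn6 that keeps its catalytic cysteine, averaged 3.73 at day 0, 5.39 at day 3, 5.59 at day 7 and 4.94 at day 28. It rose by 1.86 at day 7 against day 0 (SE 0.21, adjusted p = 2.55e-06, limma) and by 1.66 at day 3 against day 0 (adjusted p = 3.53e-06, limma). The ubiquitous calpains Capn1 and Capn2 and their small subunit Capns1 rose by 0.38, 0.44 and 0.49 at day 7 against day 0 (adjusted p = 0.0312, 0.0256 and 0.00958, limma), and none of these 3 calls held with centred arrays, where the differences were 0.02, 0.08 and 0.13. The Capn1 call was lost in 6 of 22 alternatives, the replicate block and 4 of the fits without 1 array included, and the Capn2 call in 5 of 22, of which 4 left out 1 array.

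**Figure D1:**
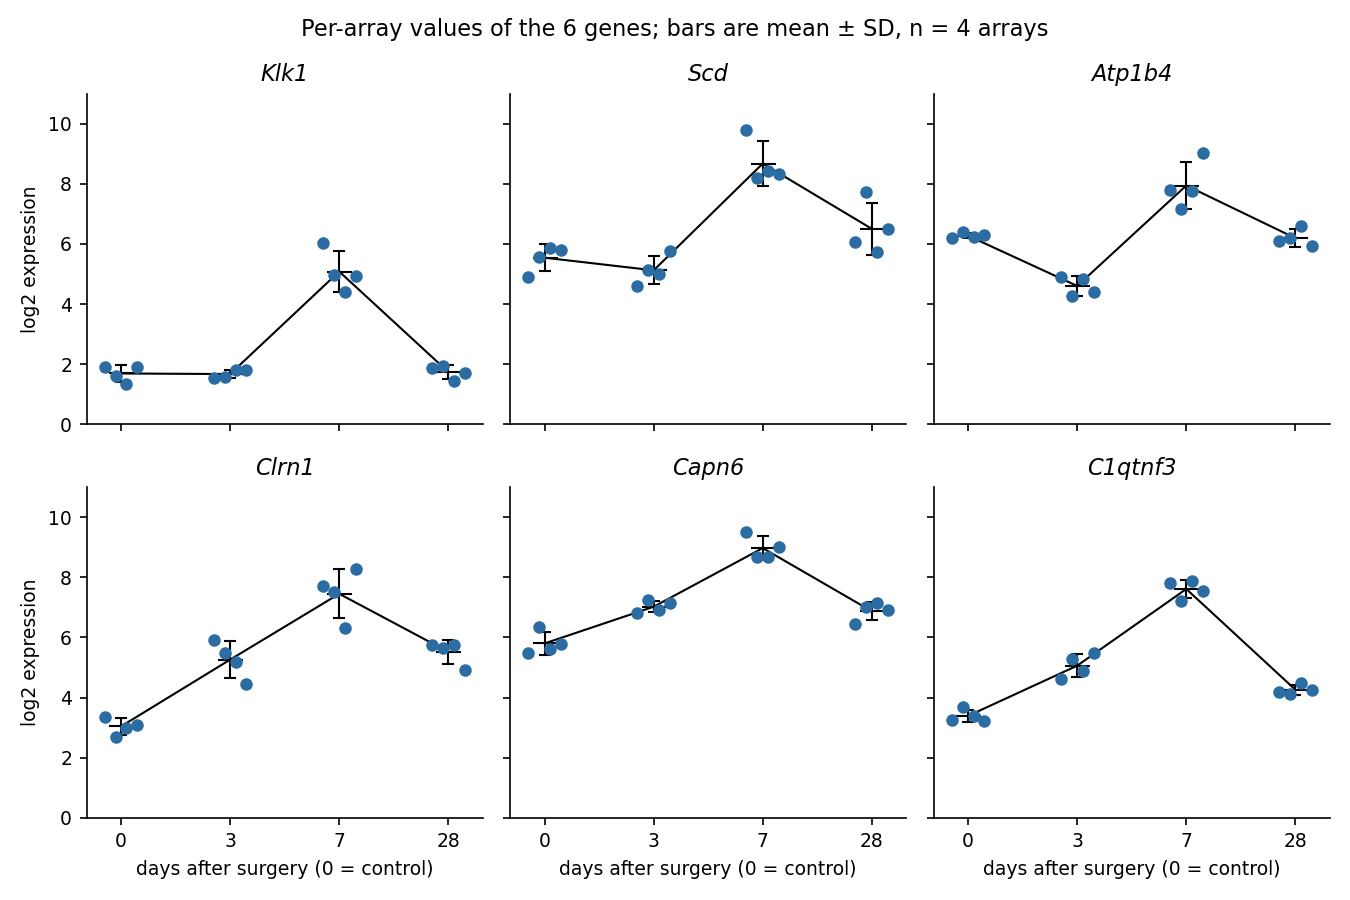
Log2 expression of the 6 genes on each of the 16 arrays, by days after surgery; points are arrays, the line joins the means and bars are the mean ± SD of 4 arrays. Day 7 is above every other array in each panel, while day 3 lies under day 0 for Atp1b4 (4.60 against 6.27) and above it for Clrn1, Capn6 and C1qtnf3.

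Day 3 and day 28 divided the 6 genes. At day 3 against day 0, Clrn1, Capn6 and C1qtnf3 rose, Atp1b4 fell, and Klk1 and Scd did not pass, that is 3 rose and 1 fell of 6. Over all genes 21.7% rose and 19.6% fell in that comparison. At day 28 against day 0, 3 of 6 rose (Clrn1, Capn6 and C1qtnf3) and none fell, where 6.29% of all genes rose and 2.8% fell. At day 28 against day 3, Scd and Atp1b4 rose, C1qtnf3 fell and 3 did not pass, where 15.9% of all genes rose and 16.8% fell. The median differences of the 6 were 0.61, 0.92 and 0.17 in these comparisons, beside -0.05, 0.00 and 0.02 over all genes. With 6 genes, these shares describe the genes named and nothing wider. The comparisons share arrays, so day 3 and day 28 each against day 0 are not independent. Fibroblast markers rose in 8 of 8 at day 3 and in 7 of 8 at day 28 against day 0, and macrophage markers in 6 of 6 and 5 of 6. The part of these cells in the rises of Clrn1, Capn6 and C1qtnf3 was not tested. Every call of the 6 genes in these 3 comparisons kept its side of the threshold in all 393 alternative values computed.

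**Figure D2:**
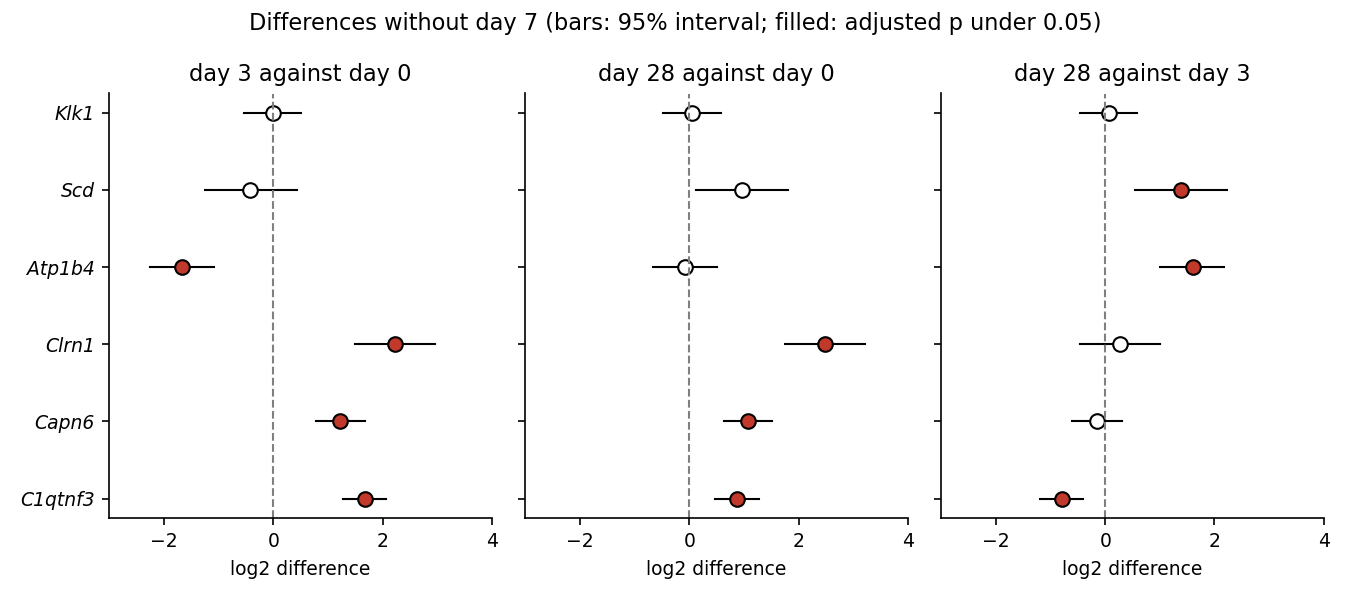
Log2 differences of the 6 genes in the 3 comparisons that leave out day 7 (limma, 4 arrays a day); bars are 95% intervals and filled points had an adjusted p under 0.05. Clrn1, Capn6 and C1qtnf3 lie above 0 at both day 3 and day 28 against day 0, and Atp1b4 lies at -1.67 at day 3 and -0.07 at day 28.

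Centring the arrays changed the totals called, while cyclic loess between arrays, another way to scale them, changed them little. At day 3 against day 0, 3152 rose and 2792 fell with cyclic loess, beside 3156 and 2857 as reported. Centring set every array to the same median over the tested genes. It moved the overall median difference by -0.46 at day 3 against day 0, -0.36 at day 7 against day 0 and -0.25 at day 28 against day 0. It moved it by 0.10 at day 7 against day 3, 0.21 at day 28 against day 3 and 0.11 at day 28 against day 7. The share of calls that were rises was 52.5% at day 3 against day 0 and 18.2% with centring. It was 53.2% and 16.8% at day 7 against day 0, and 69.2% and 15.2% at day 28 against day 0. It was 39.5% and 56.9% at day 7 against day 3, 48.6% and 70.3% at day 28 against day 3, and 46.8% and 65.7% at day 28 against day 7. With cyclic loess the share was 53%, 53.6% and 65.4% at days 3, 7 and 28 against day 0. It was 38.7% at day 7 against day 3 and 46.2% at day 28 against day 3. At day 28 against day 7 it was 43.5%. Before centring, the median of the tested genes was 4.16 to 4.24 on day 0 arrays and 4.65 to 4.71 on day 3 arrays. The overall median difference between these days was -0.05, or -0.51 with centring and 0.00 with cyclic loess.

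The height of the peak, taken as the day 7 mean minus the highest mean of the other days, was 3.34 for Klk1, 2.55 for C1qtnf3, 2.17 for Scd, 1.95 for Capn6, 1.93 for Clrn1 and 1.67 for Atp1b4. These values are those that chose the genes and are given as a description. With centred arrays the heights were 3.03, 2.66, 2.06, 1.99, 1.82 and 1.31 in the same order of genes. Their ranks among the 14557 genes were 1, 3, 7, 9, 10 and 14, and the median height over all genes was -0.27. Day 7 was the highest mean in 2410 genes, and 47 had a height of at least 1. The next gene above Atp1b4 was Lrrn1, at 1.74, and just below it were Mmp11 at 1.62 and Tceal7 at 1.60. The 8 other genes with a height of at least 1.67 were Myh3 (2.61), Mymk (2.43), Gnas (2.33), Tnnt2 (2.23), Slc51a (2.01), Chrna1 (1.87), B3galt2 (1.84) and Lrrn1. Of these 8, 7 had day 7 arrays apart from all others, and those of Gnas overlapped. The 8 were picked by their height, which favours such a separation, and its share over all genes was not counted, so this is a description. Myh3, Mymk, Tnnt2 and Chrna1 encode embryonic myosin heavy chain, the myoblast fusion protein myomaker, the cardiac and embryonic troponin T and the alpha subunit of the muscle acetylcholine receptor.

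**Figure D3:**
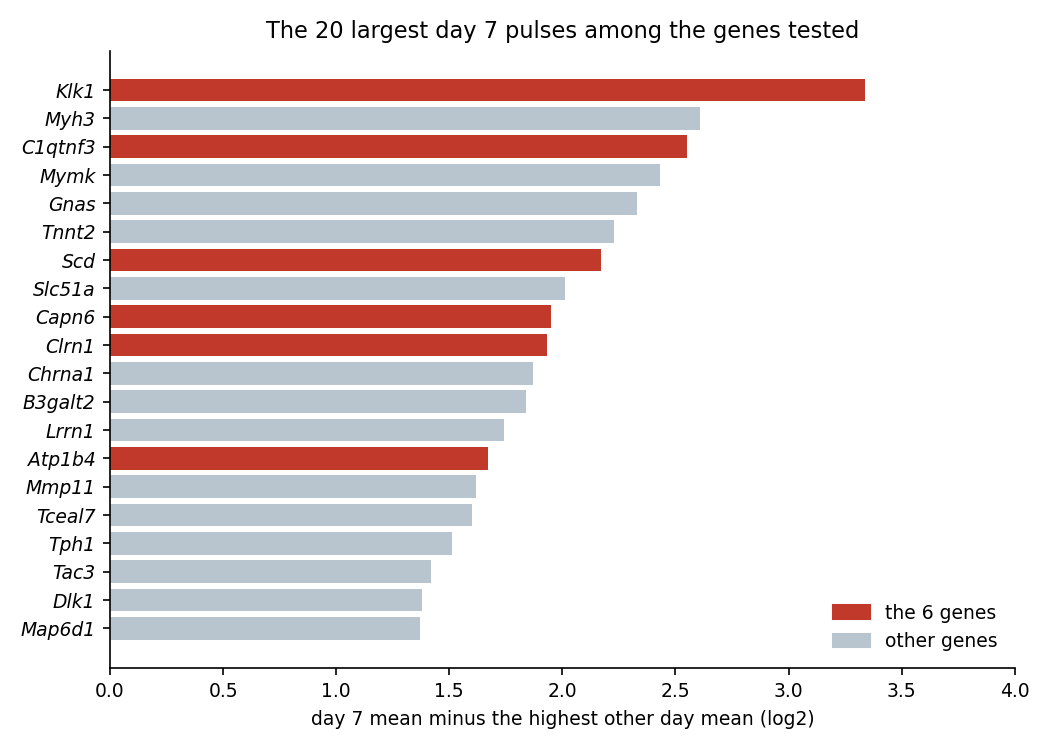
The 20 genes with the largest height of the day 7 peak, as the day 7 mean minus the highest mean of days 0, 3 and 28 in log2 units; red bars are the 6 genes described and grey bars the others. Klk1 leads at 3.34, and 8 other genes lie at or above Atp1b4 at 1.67.

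Within day 7 the 6 genes did not rank the arrays alike. Replicate 1 was the highest for Klk1, Scd and Capn6, replicate 4 for Atp1b4 and Clrn1, and replicate 3 for C1qtnf3. Replicate 2 was the lowest for Scd, Atp1b4, Capn6 and C1qtnf3, and replicate 3 for Klk1 and Clrn1. On day 7 replicate 2 the skeletal muscle markers averaged 12.40, against 12.52 to 12.62 on the other day 7 arrays. The 5 neutrophil markers measured averaged 3.71 on that array, against 2.04 to 2.36 on the others. By their day 7 means, 4 of these 5 lay under the array medians. The part of these cells in the values was not tested. Over the 16 arrays, with each gene centred on its own mean, the root mean square difference between profiles was smallest for Capn6 with C1qtnf3 (0.54 log2 units) and largest for Atp1b4 with Clrn1 (1.50). Klk1 and Scd differed by 0.70 on this measure.

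By the same measure over 16 arrays, the genes outside the 6 most like Klk1 were Slc51a (0.62), Mymk (0.64) and Lrrn1 (0.74). Symbols of predicted genes were passed over in all these rankings of nearest genes. Those most like C1qtnf3 were Mymk (0.48), Tnnt2 (0.61) and Slc51a (0.69). Scd had no gene as near, its closest being Gnas (0.81), Map6d1 (0.85) and Lrrn1 (0.86). Atp1b4 lay nearest to Zim1 (0.63), Gnas (0.65) and Tceal7 (0.66), and Zim1 had the same dip, with means of 5.67, 3.61, 6.11 and 5.69 in the order of the days. Clrn1 lay nearest to the matrix genes Mmp14 (0.73), Mmp2 (0.75) and Cilp (0.77), whose means at days 3 and 28 were also above day 0. Mmp2, for example, averaged 7.66 at day 0, 9.55 at day 3, 10.52 at day 7 and 9.42 at day 28. The closest single match of any of the 6 genes was that of Capn6 with Dkk3 (0.45), followed by Cpxm1 (0.48) and Cidea (0.49). Against the mean profile of the 6, the nearest were Mymk, Cdkn1c and Lrrn1 (0.56 each), Slc51a (0.61), Gnas (0.63) and Dkk3 (0.64). The measure is a description and favours genes with differences of like size.

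Genes of developing and regenerating muscle were also raised at day 7. Of 25 listed, 15 were measured. Of these, 11 rose and none fell at day 7 against day 0 (median 1.52), beside 16.9% and 14.9% of all genes. At day 7 against day 3, 11 rose and 1 fell (median 0.80), beside 6.02% and 9.23%. At day 28 against day 7, none rose and 14 fell (median -1.18), beside 8.24% and 9.38%. The list had been drawn up with earlier results of these data known. Myh3 read 8.10, 8.21, 8.77 and 8.72 at day 0, 8.61, 7.77, 7.55 and 8.10 at day 3, 11.20, 9.75, 11.41 and 11.86 at day 7, and 6.05, 6.14, 5.40 and 5.75 at day 28. Myh3 rose by 2.61 at day 7 against day 0 (SE 0.35, adjusted p = 1.85e-05, limma) and fell by 5.22 at day 28 against day 7 (adjusted p = 1.49e-07, limma). It also fell by 2.61 at day 28 against day 0 (adjusted p = 0.000113, limma), where none of the 6 genes fell. Mymk was 2.73, 2.95, 2.58 and 2.71 at day 0, 3.88, 3.60, 3.12 and 4.31 at day 3, 6.69, 5.20, 6.08 and 6.65 at day 7, and 3.25, 2.59, 3.51 and 2.55 at day 28. Its rise at day 7 against day 0 was 3.41 (SE 0.31, adjusted p = 2.36e-07, limma), from a day 0 level under the array medians, beside 3.39 for Klk1. Tnnt2 rose by 3.99 at day 7 against day 0 (SE 0.32, adjusted p = 7.33e-08, limma), and Chrna1 by 2.04 (adjusted p = 0.0017, limma), with day 7 arrays that spread from 7.79 to 10.90. Myog, the factor that starts myoblast differentiation, peaked earlier, with a rise of 2.27 at day 3 against day 0 (adjusted p = 2.3e-06, limma). It fell by 0.91 at day 7 against day 3 (adjusted p = 0.0291, limma), a call lost in 4 of the fits without 1 array.

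**Figure D4:**
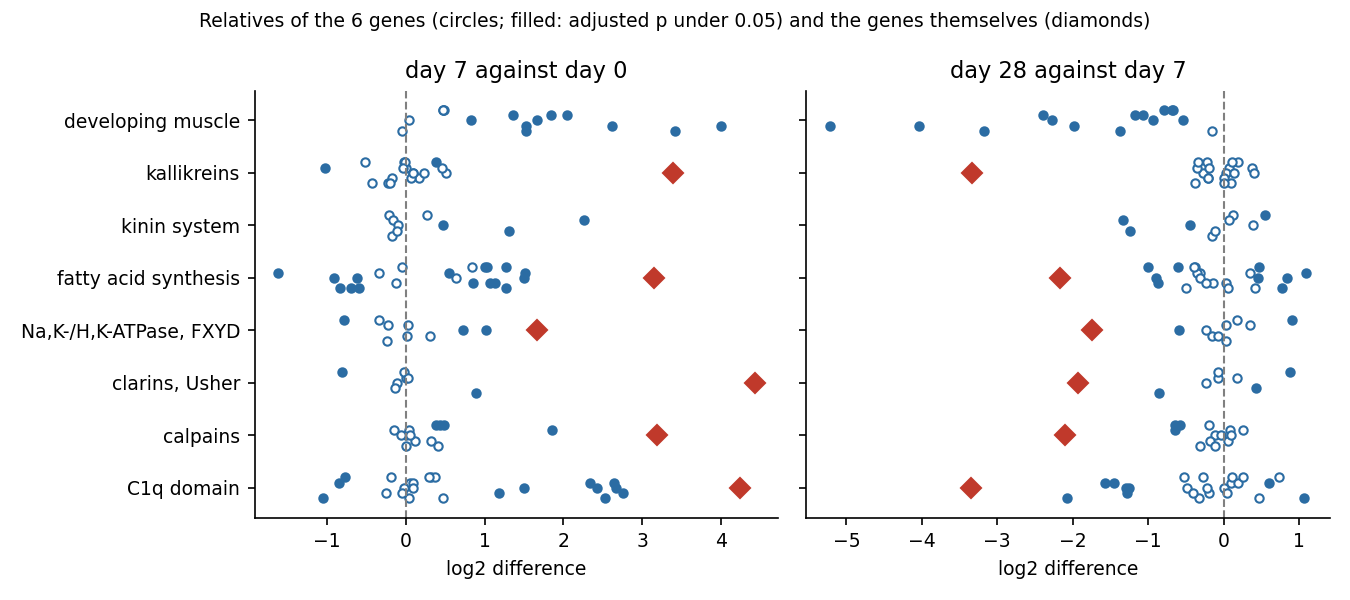
Log2 differences at day 7 against day 0 (left) and at day 28 against day 7 (right) for the genes of each family or pathway list (circles, filled where the adjusted p was under 0.05) and for the 6 genes (diamonds, not tested there). Genes of developing muscle are mostly right of 0 on the left and left of 0 on the right (11 rises and 14 falls). The 6 genes were chosen on these contrasts, so the place of the diamonds is a description.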

How the data were processed

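The deposited table gives, for each transcript cluster on each array, a log2 expression value made by the authors. The submitters' processing notes name RMA, limma and oligo. Versions, parameters and the genome build are not given in the sources used here. RMA normalizes between arrays and compresses dim values. Of 36685 clusters (values 0.0686 to 13.6), 15653 were in the platform annotation used, 14824 with 1 gene symbol, 829 with several and 21032 of the table with none. For 234 genes with several clusters the cluster with the highest mean was used, which left 14557 genes. RefSeq gene IDs (assembly GRCr8) matched 14670 named clusters and changed 0 symbols. Arrays have no read depth, and their number limits the precision.

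All 16 arrays entered 1 model with a mean per day, fitted in limma 3.58.1 under R 4.3.3 (12 residual and 4.99 prior degrees of freedom, no intensity trend), two-sided, with Benjamini-Hochberg adjustment and a threshold of 0.05. Unadjusted 95% intervals come from the same fit. The fit was tested on simulated data. No batch is named in the labels. The 24 pairs of replicates differed by a spread (SD over genes) of 0.39 to 0.46, so none was counted as a copy. The members and lists were chosen with earlier results of these data known. The text names the 6 genes, from each list up to 4 called genes with the largest difference at day 7 against day 0 and up to 2 in each other comparison except that of day 28 with day 3, the 10 largest peaks outside the 6, and the 3 nearest profiles of each gene (6 of their mean). Bdkrb1, Bdkrb2, Atp1b1, Snw1, Clrn2, Clrn3 and Acly, and further comparisons of genes named by that rule, were added after their values were seen. Alternatives were an intensity trend with robust priors, arrays centred on their median over tested genes, cyclic loess, the dimmest 50% of genes left out, all clusters tested, the replicate number as a block, each array left out and the mean of a gene's clusters.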

Additional observations from a re-analysis of the deposited data

Results flagged for a closer look

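Of 24 groups of 4 arrays (6 genes at 4 times), 2 held an array whose distance from its neighbour took up more of the group's range than Dixon's critical value allows, which chance passes in about 1 group in 20. Scd on day 7 replicate 1 was 9.77, where the other day 7 arrays were 8.18 to 8.42, and the peak of Scd was 1.80 without that array and 2.17 with it. Clrn1 on day 28 replicate 4 was 4.93, where the other day 28 arrays were 5.64 to 5.76, and Clrn1 stayed above day 0 at day 28 in every alternative (2.24 to 2.68).

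The difference from day 0 was not the same at days 28 and 3 for 3 genes, tested as day 28 against day 3 (limma, which uses the same day 0 arrays on both sides). The difference of Scd was 1.38 higher at day 28 than at day 3. That of Atp1b4 was 1.60 higher. That of C1qtnf3 was lower at day 28, by -0.80.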

How the results depend on the processing

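No call of the 6 genes changed in 393 alternative values, and only differences that did not pass turned sign or reached 0: Klk1 at day 3 against day 0 (-0.47 to 0.06), at day 28 against day 0 (-0.20 to 0.15) and at day 28 against day 3 (-0.01 to 0.27), Atp1b4 at day 28 against day 0 (-0.33 to 0.02), Clrn1 at day 28 against day 3 (0.00 to 0.49) and Capn6 at day 28 against day 3 (-0.24 to 0.06) (Klk1 was not tested with the dimmest 50% left out), and each has 1 cluster, so the mean of a gene's clusters changed nothing. Counts over all genes moved by over 1.5 times with centred arrays: at day 3 against day 0, 1883 rose and 8438 fell (3156 and 2857 as reported), at day 28 against day 0, 544 and 3043 (915 and 408), at day 7 against day 0, 1417 and 7025 (2455 and 2162), and rises were 4226 at day 28 against day 3 (2314), 1374 at day 7 against day 3 (877) and 2014 at day 28 against day 7 (1200). With all clusters tested, which adds features, 5073 rose and 6620 fell at day 3 against day 0, 4602 and 3854 at day 28 against day 3, 3783 and 4529 at day 7 against day 0, and 1859 rose at day 28 against day 7. Leaving out each array gave 235 to 498 falls at day 28 against day 0 (408 as reported), the lowest without day 28 replicate 3, with 260 without day 0 replicate 1, 263 without day 28 replicate 1 and 239 without day 28 replicate 2. Counts of several lists also moved when 1 array was left out, for example the falls of the fatty acid list at day 28 against day 7 (2 to 5). The cause was not tested.

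No strong shared deviation was seen between samples with the same replicate number (24 pairs, r of -0.04 to 0.09). The range was -0.12 to 0.09 for the 72 pairs with other numbers. Whether equal numbers mark a shared animal or run cannot be told from these values. With the replicate number as a block, 3184 rose and 2866 fell at day 3 against day 0, and no call of the 6 genes changed. Signal limits Klk1 on days 0, 3 and 28 and Clrn1 on day 0, which lay under the array medians.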

Other observations

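Among the 22128 clusters of the table that were not tested as genes, 10 had a day 7 peak at least as high as that of Atp1b4. Of these 10, picked by that peak, 7 had day 7 arrays above all others, and the share over all clusters was not counted. The largest such peak was 5.79 log2 units, above that of Klk1 at 3.34. The 22128 clusters include further clusters of genes that were tested, and none of the 10 is named here.

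Outside the families of the 6 genes, endothelial markers averaged lower on day 7 arrays than on day 0 arrays, while fibroblast markers averaged higher. The 4 endothelial markers measured of 6 averaged 5.59 to 6.02 at day 7, against 6.27 to 6.85 at day 0. Of these 4, 2 fell at day 7 against day 0 (limma), beside 14.9% of all genes. With centred arrays all 4 fell, where 7025 of the 14557 genes fell. Tenocyte markers, all 5 measured, averaged 6.41 to 7.38 at day 7 and 5.50 to 6.38 at day 0. Of these 5, 2 rose, beside 16.9% of all genes, and with centred arrays 1 rose and 1 fell. Mast cell markers, all 6 measured, averaged 3.03 to 3.51 at day 7 and 2.52 to 3.01 at day 0, with 4 of the 6 under the array medians on both days. The 2 Schwann cell markers measured averaged 3.42 to 4.00 at day 7 and 3.18 to 3.49 at day 0, and neither passed.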
